A study of Homo sapiens with 12 samples.

Results

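The BCL2 family of apoptosis regulators was followed here through 10 genes, BAX, BAK1, BBC3, PMAIP1, BCL2L1, BCL2L11, MCL1, BID, BIK and BMF, taken by symbol from the 26372 genes of the expression tables. Transcripts were measured by sequencing of polyadenylated RNA in the human colorectal carcinoma line HCT116, in cells that were either wild type (WT) or knocked out for KDM3A (KO). KDM3A encodes a histone demethylase that acts on lysine 9 of histone H3. Cells of each genotype were sampled in normal growth (mock), in medium without serum (starved) and after fetal bovine serum was given back following 24 h of starvation (refed). This gave 6 groups, 3 of each genotype. All came from the HCT116 line, and the KO cells carried no other stated alteration. The labels list 12 samples, 2 in each group, but each group has 1 column of values. That column is attached to the first replicate of its group but named for the group only. Whether it holds that replicate alone or both samples is not stated. There was thus 1 value per group and no spread between replicates. Which part of KDM3A was removed, how many KO clones were used and how long cells were refed are not given in the sources used here.

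BCL2 family proteins decide whether the outer mitochondrial membrane stays closed. BAX and BAK1 are the effectors, which assemble into pores and release cytochrome c, after which caspases are activated. BCL2L1, whose main product is BCL-XL, and MCL1 are anti-apoptotic guardians that bind the effectors and their activators. BBC3 (PUMA), PMAIP1 (NOXA), BCL2L11 (BIM), BID, BIK and BMF carry only the BH3 domain, and they bind the guardians or activate the effectors directly.

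Values are FPKM, fragments scaled to transcript length and to the mapped fragments of a library, so levels of different genes are compared per length. Ratios and differences are on the log2(FPKM + 1) scale, which understates changes of low genes such as BMF. Between 12170 and 12648 genes reached 1 FPKM in a group, and the 13456 features that did so in at least 1 group were tested; all 10 family genes were among them. KDM3A measured 41.3, 17.8 and 19.8 FPKM in WT mock, starved and refed cells and 3.15, 3.01 and 3.59 FPKM in the matching KO groups, which is 7.64%, 17.0% and 18.2% of WT. The 8 epithelial markers were all at 1 FPKM or more in every group, with a summed level of 2307 to 2772 FPKM in WT and 4991 to 6213 FPKM in KO. Keratins made up most of these sums, with KRT8 at 1011 FPKM in WT mock and 2425 FPKM in KO mock. EPCAM differed less, at 175.6 and 202.8 FPKM in the same groups. ELF3 was lower in KO mock (67.8 against 74.0 FPKM) and KO starved (41.0 against 47.6 FPKM) and higher in KO refed (85.2 against 64.1 FPKM). WT mock stood apart: all 16 endothelial markers were at 1 FPKM or more there, summing to 299.5 FPKM, against 2 of 16 (ESAM and EGFL7) and 49.0 to 90.2 FPKM in the other 5 groups. Of the defining endothelial genes, CDH5 was listed at 0 in KO mock and KO starved, and ERG was listed at 0 in all 3 KO groups. In the leukocyte and fibroblast lists only CD68 and COL1A1 reached 1 FPKM, in every group. Genes listed at 0 numbered 4300 in WT starved, 4301 in WT refed and 6401 in WT mock, and between 7075 and 7312 per KO group.

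The 250 bases before the gene start of BAX are shown because BAX was the only family gene that fell in KO on the deposited scale. The same window of PMAIP1 is shown because PMAIP1 and MCL1 had the highest refed to starved ratios of the family in both genotypes. Both come from RefSeq on build GRCh38.p14, on which 8 of the 10 genes matched, BIK and MCL1 not; the submitters' processing notes name hg19 for the expression tables. BAX starts downstream of chr19:48954625-48954874 (plus strand) and PMAIP1 downstream of chr18:59899746-59899995 (plus strand). Capitals mark CACGTG (the E-box letters) in BAX and, in PMAIP1, TGACGT (the core letters of a cAMP response element) read on the opposite strand.
BAX: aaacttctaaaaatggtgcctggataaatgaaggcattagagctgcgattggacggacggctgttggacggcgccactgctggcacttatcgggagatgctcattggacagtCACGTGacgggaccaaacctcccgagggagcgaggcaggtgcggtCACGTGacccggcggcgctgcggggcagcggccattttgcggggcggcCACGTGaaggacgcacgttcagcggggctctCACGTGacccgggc
PMAIP1: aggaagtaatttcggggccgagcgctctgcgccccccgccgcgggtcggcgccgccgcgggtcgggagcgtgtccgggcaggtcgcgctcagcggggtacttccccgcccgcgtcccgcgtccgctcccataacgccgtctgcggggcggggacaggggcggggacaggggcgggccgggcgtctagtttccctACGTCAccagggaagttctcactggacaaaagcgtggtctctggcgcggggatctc
Motifs were searched on both strands, and none of the marked ones overlap. The BAX window held CACGTG 4 times, starting 138, 93, 45 and 14 bases before the gene start, while 6.34% of all 35116 such windows held it at all. The share of windows that held it several times was not counted. Among the other matched genes, single copies stood in the BBC3 window and in some of the BID windows. TGACGT was found once among the matched genes, in PMAIP1, 56 bases before the start, and in 7.1% of all windows. GTAAACA, letters that FOXO factors bind, occurred once, in BCL2L11, and in 2.98% of all windows. These matches describe the letters of the windows and not binding.

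The first comparison asked how loss of KDM3A bore on the family. All 3 KO values of the effector BAX lay below all 3 WT values, as in 6.09% of all features. Those of BIK, BCL2L1 and, by a small margin, BID lay above them, as in 25.5% of all features. Compared state by state, PMAIP1 and MCL1 were also below WT in every state and BAK1 above it, but their genotypes overlapped. Averaged over the 3 states, 3 of the 10 genes rose (BIK, BCL2L1, BID), 1 fell (BAX) and 6 did not pass the test. Of all 13456 features, 28.7% rose and 4.58% fell, so that on this deposited scale 3 rising genes in 10 is about the share among all features. After either rescaling of the columns 2 of the 10 rose (BIK, BCL2L1) and 3 fell (BAX, BBC3, PMAIP1). Of all features 1651 then rose and 1454 fell with median-ratio factors, and 1459 rose and 1712 fell with upper-quartile factors. The median difference of the family was 0.10 on the log2 scale, beside 0.16 for all features. The test was limma on the 6 group values, with genotype and state as additive terms and Benjamini-Hochberg adjustment (threshold 0.05). Its 2 residual degrees of freedom measure how even the difference was across states and not replicate error. "Rose" and "fell" are used only of genes past this threshold.

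**Figure D1:**
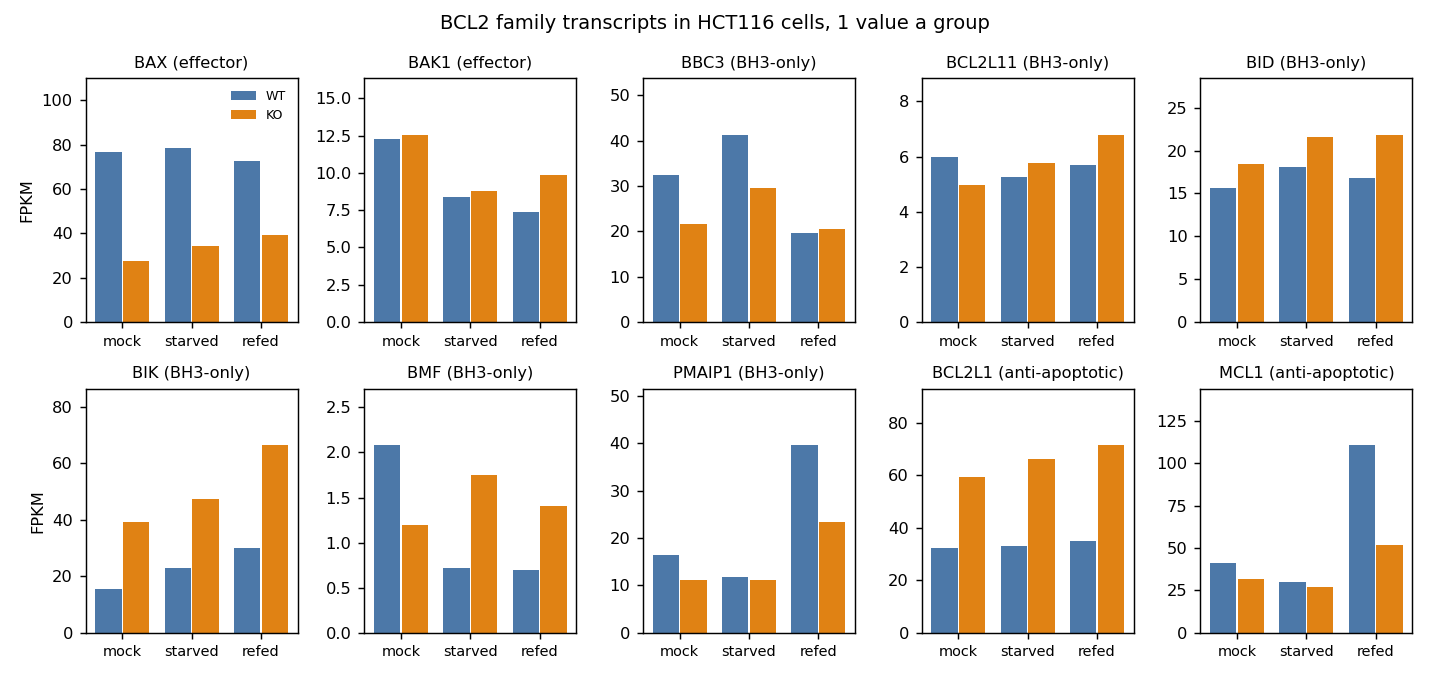
FPKM (vertical axis, a separate scale per gene, starting at 0) of the 10 BCL2 family genes in mock, starved and refed cells, WT in blue and KO in orange, 1 value per bar and so no error bars. All 3 KO bars lie below the 3 WT bars for BAX and above them for BID, BIK and BCL2L1, and MCL1 and PMAIP1 peak in WT refed cells.

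BAX was the most abundant family gene in WT mock and WT starved cells. It measured 76.7, 78.5 and 72.5 FPKM in WT mock, starved and refed cells and 27.8, 34.4 and 39.2 FPKM in the matching KO groups. The 3 WT values were close to one another, the 3 KO values were lower, and the genotypes did not overlap; 6.09% of all features had all KO values below all WT values. KO was 2.77-fold lower than WT in mock, 2.29-fold lower in starved and 1.85-fold lower in refed cells, in FPKM. BAX fell by 1.16 on the log2 scale (SE 0.12, adjusted p = 0.00827, limma). Whether fewer cells carried the transcript or each cell carried less cannot be told apart in bulk RNA. BAX made up 30.6%, 31.4% and 21.5% of the family's summed FPKM in the WT groups and 12.2%, 13.6% and 12.6% in the KO groups.

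BAK1, the other effector, measured 12.3, 8.36 and 7.36 FPKM in WT mock, starved and refed cells and 12.6, 8.77 and 9.85 FPKM in KO. The mock values were the highest in both genotypes, and the genotypes overlapped. The averaged KO minus WT difference was 0.16 (SE 0.09, adjusted p = 0.224, limma), and it turned negative when the columns were rescaled (-0.02 with median-ratio and -0.04 with upper-quartile factors). Without either refed value it was 0.05. The BAX to BAK1 ratio ran at 6.26, 9.39 and 9.85 over the WT states and at 2.21, 3.92 and 3.98 over the KO states. BAK1 has processed pseudogenes of near-identical sequence, and how reads shared with them were counted is not given in the sources used here.

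BIK, a BH3-only protein of the endoplasmic reticulum, had the widest range of the family, 4.24-fold between its highest and lowest group. It measured 15.6, 23.0 and 30.2 FPKM in WT mock, starved and refed cells and 39.4, 47.4 and 66.4 FPKM in KO. Each KO value exceeded every WT value, and within each genotype mock was lowest and refed highest; 25.5% of all features had all KO values above all WT values. KO was 2.52-fold, 2.06-fold and 2.20-fold higher than WT in the 3 states, at least 2-fold each time on the log2(FPKM + 1) scale as well, which held for 1.27% of all features (0.602% were as much lower in all 3 states). BIK rose by 1.13 (SE 0.08, adjusted p = 0.00386, limma).

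BID, which caspase-8 cleaves to link death receptors to mitochondria, varied little. Its levels were 15.7, 18.0 and 16.9 FPKM in WT mock, starved and refed cells and 18.4, 21.6 and 21.9 FPKM in KO. The lowest KO value lay just above the highest WT value, and 25.5% of all features were likewise separated upward. BID rose by 0.27 (SE 0.06, adjusted p = 0.0323, limma), but the difference was 0.09 (adjusted p = 0.229) after median-ratio rescaling and 0.06 (adjusted p = 0.361) after upper-quartile rescaling, and the call was lost in both.

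BBC3 measured 32.4, 41.3 and 19.6 FPKM in WT mock, starved and refed cells and 21.7, 29.5 and 20.5 FPKM in KO. WT was the higher genotype in mock and starved cells, and the refed values of both genotypes lay together at the bottom. The averaged difference was -0.32 (SE 0.14, adjusted p = 0.140, limma), and it passed the threshold after rescaling (-0.51, adjusted p = 0.0458 with median-ratio, and -0.54, adjusted p = 0.037 with upper-quartile factors). Leaving out either mock value gave -0.20, and leaving out either refed value gave -0.52, without a call. The microRNA genes MIR3190 and MIR3191 overlap BBC3, and whether strand was used in counting is not given in the sources used here.

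PMAIP1, whose product binds MCL1, measured 16.4, 11.8 and 39.6 FPKM in WT mock, starved and refed cells and 11.1, 11.1 and 23.4 FPKM in KO. The refed value was the highest in both genotypes, and KO was below WT in each state by 1.48-fold, 1.07-fold and 1.69-fold. The averaged difference of -0.45 (SE 0.14, adjusted p = 0.0639, limma) missed the threshold, and passed it after median-ratio rescaling (-0.63, adjusted p = 0.0466) and upper-quartile rescaling (-0.66, adjusted p = 0.044).

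BCL2L11 was even across groups, with 5.98, 5.25 and 5.69 FPKM in WT mock, starved and refed cells and 4.98, 5.77 and 6.79 FPKM in KO. Its highest and lowest groups were 1.36-fold apart, the smallest range of the family, and the averaged KO minus WT difference was 0.04 (SE 0.10, adjusted p = 0.790, limma), with a negative sign after rescaling (-0.13 and -0.15). BMF, a BH3-only protein that binds dynein light chains, was the least abundant, at 2.08, 0.722 and 0.699 FPKM in WT mock, starved and refed cells and 1.20, 1.75 and 1.41 FPKM in KO. The WT mock value was the highest of the 6, and WT starved and refed were the lowest and under 1 FPKM. The averaged difference of BMF was 0.23 (SE 0.25, adjusted p = 0.499, limma). Without the WT mock value, the group in which endothelial markers were present, it was 0.59 (SE 0.07, adjusted p = 0.0255), as it was without KO mock, and without either starved value it was 0.007; the part of those markers in the BMF value was not tested.

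Of the guardians, BCL2L1 rose and MCL1 did not pass the test. BCL2L1 measured 32.2, 33.0 and 34.9 FPKM in WT mock, starved and refed cells and 59.4, 66.3 and 71.4 FPKM in KO. Values were close within each genotype, and every KO value lay above every WT value, as in 25.5% of all features. KO was higher by 1.85-fold, 2.01-fold and 2.04-fold in the 3 states. BCL2L1 rose by 0.95 (SE 0.07, adjusted p = 0.00403, limma). The gene encodes both the protective long form and a shorter pro-apoptotic form, which gene-level values do not separate. The antisense gene BCL2L1-AS1 overlaps it.

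MCL1, a guardian with a short-lived transcript and protein, measured 41.4, 29.7 and 110.6 FPKM in WT mock, starved and refed cells and 32.0, 26.9 and 51.7 FPKM in KO. KO was below WT in each state, by 1.29-fold, 1.10-fold and 2.14-fold, but the groups overlapped because both genotypes changed with culture state. The averaged difference was -0.53 (SE 0.20, adjusted p = 0.101, limma). Without the WT refed or the KO refed value it was -0.25 (adjusted p = 0.210).

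**Figure D2:**
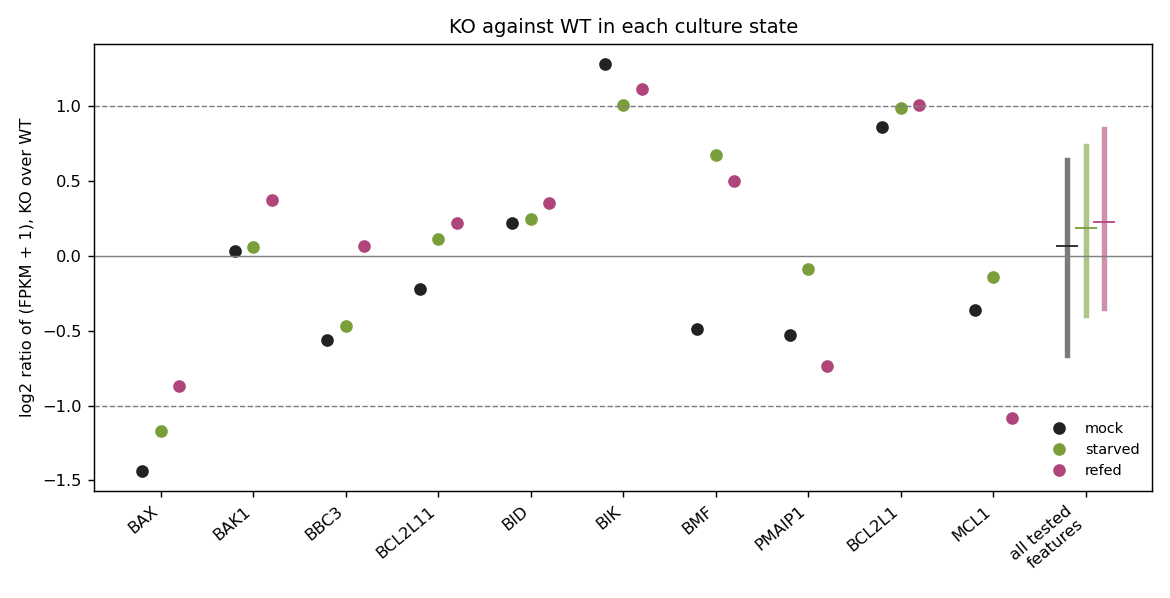
KO over WT log2 ratio of (FPKM + 1) for each gene in mock, starved and refed cells (points, 1 value against 1 value), with the median and the 5 to 95% range of all 13456 features at the right (horizontal ticks and bars). Dashed lines mark a 2-fold ratio; BIK lies above the upper one in all 3 states, and BAX lies below the lower one in mock and starved cells.

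State by state, with 1 value against 1 value and no test, 2 family genes differed at least 2-fold in mock cells, BIK higher (as were 2.27% of all features) and BAX lower (3.22%). BIK and BAX did so again in starved cells, where 2.59% of features were higher and 1.46% lower. In refed cells BIK and BCL2L1 were higher (3.41%) and MCL1 lower (1.51%). After either rescaling, BIK and BCL2L1 no longer reached 2-fold in refed cells, and BIK did not in starved cells. BAX, PMAIP1 and MCL1 were then at least 2-fold lower in refed cells. Of all features, 309 were that much higher in refed KO cells and 274 lower with median-ratio factors. With upper-quartile factors these counts were 295 and 278. The rescaling lowers all KO to WT ratios together. In the averaged test the split of all features was 3867 risen to 616 fallen on the deposited scale. It was 1651 to 1454 with median-ratio factors and 1459 to 1712 with upper-quartile factors. BAX, BIK and BCL2L1 passed the test on all 3 scales, with differences of -1.35 and -1.38 for BAX, 0.94 and 0.92 for BIK and 0.76 and 0.74 for BCL2L1 (median-ratio, then upper-quartile).

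Those 3 calls and that of BID also held without the WT mock value (BAX -1.02, adjusted p = 0.023; BIK 1.06, adjusted p = 0.018; BCL2L1 0.998, adjusted p = 0.0173; BID 0.30, adjusted p = 0.0397). In that fit 5713 of 13456 features passed, more than the 4483 with all values. The estimates of these genes were the same without KO mock. With 1 mock value left, the KO minus WT difference rests on the starved and refed values only. Leaving out any 1 starved or refed value left 5 to 32 of all features past the threshold and none of the family, at 1 residual degree of freedom.

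Ratios of genes within a group do not depend on how its column was scaled. The BAX to BCL2L1 ratio in FPKM was 2.39, 2.38 and 2.08 for WT mock, starved and refed cells and 0.468, 0.518 and 0.549 for the KO groups. BAX was thus above BCL2L1 in every WT group and below it in every KO group. For BIK to BAX the WT ratios were 0.204, 0.293 and 0.416 and the KO ratios 1.42, 1.38 and 1.69. Every KO value of BAX lay below the WT values, and every KO value of BCL2L1 and BIK above them. The ratios of these pairs therefore could not overlap between genotypes, and their separation is no further result. Ratios of other gene pairs were not surveyed. For MCL1 to BCL2L1 the WT ratios were 1.29, 0.899 and 3.17 and the KO ratios 0.539, 0.405 and 0.724, so BCL2L1 was the more abundant guardian in all KO groups. In contrast, the PMAIP1 to MCL1 ratio stayed between 0.346 and 0.452 in all 6 groups, with overlapping genotypes. Summed over roles, the 2 effectors came to 89.0, 86.9 and 79.9 FPKM in WT and 40.3, 43.1 and 49.1 FPKM in KO. The 6 BH3-only genes came to 88.2, 100.2 and 112.6 FPKM in WT and 96.8, 117.1 and 140.3 FPKM in KO. The 2 guardians summed to 73.5, 62.7 and 145.5 FPKM in WT and 91.4, 93.2 and 123.0 FPKM in KO. On the deposited scale KO guardians were thus higher in mock and starved cells and lower in refed cells. Unlike the ratios, these sums depend on how the columns were scaled. Median-ratio factors were 0.891 and 0.875 for WT starved and refed cells and 1.05 and 1.06 for KO. Dividing by them raises those WT sums and lowers those KO sums. The higher BH3-only sums in KO are therefore not read as a result.

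The second comparison followed serum withdrawal. Averaged over genotypes, BIK rose and BAK1 fell between mock and starved cells, and 8 of the 10 genes did not pass the test. Among all features 5.83% rose and 19.4% fell, and the median difference was 0.05 for the family and -0.13 for all features. BAK1 fell by 0.49 (SE 0.11, adjusted p = 0.0384, limma), with FPKM ratios of starved to mock of 0.682 in WT and 0.699 in KO. BIK rose by 0.40 (SE 0.10, adjusted p = 0.0451, limma), with ratios of 1.47 in WT and 1.20 in KO. Without the WT mock value the estimates were -0.39 for BAK1 and 0.29 for BIK, and both calls were lost. This was not particular to WT mock. The BAK1 call was lost whichever value was left out, and the BIK call was kept only without KO mock. Leaving out either refed value lost both calls, with the estimates unchanged. After either rescaling 4 of the genes passed, BAK1 falling and BIK, BID and BCL2L1 rising; all features then split into 2050 risen and 1954 fallen (median-ratio) or 1961 and 2053 (upper-quartile), against 785 and 2605 on the deposited scale.

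BBC3 was 1.27-fold higher in starved than mock WT cells and 1.36-fold higher in KO, and did not pass the test (0.38, SE 0.17, adjusted p = 0.164, limma). MCL1 had ratios of 0.718 in WT and 0.840 in KO, and also did not pass (adjusted p = 0.312). No family gene differed 2-fold between mock and starved cells in either genotype on the log2(FPKM + 1) scale; in WT 1.03% of all features were that much higher and 3.91% lower, and the KO shares were 0.951% and 1.18%.

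**Figure D3:**
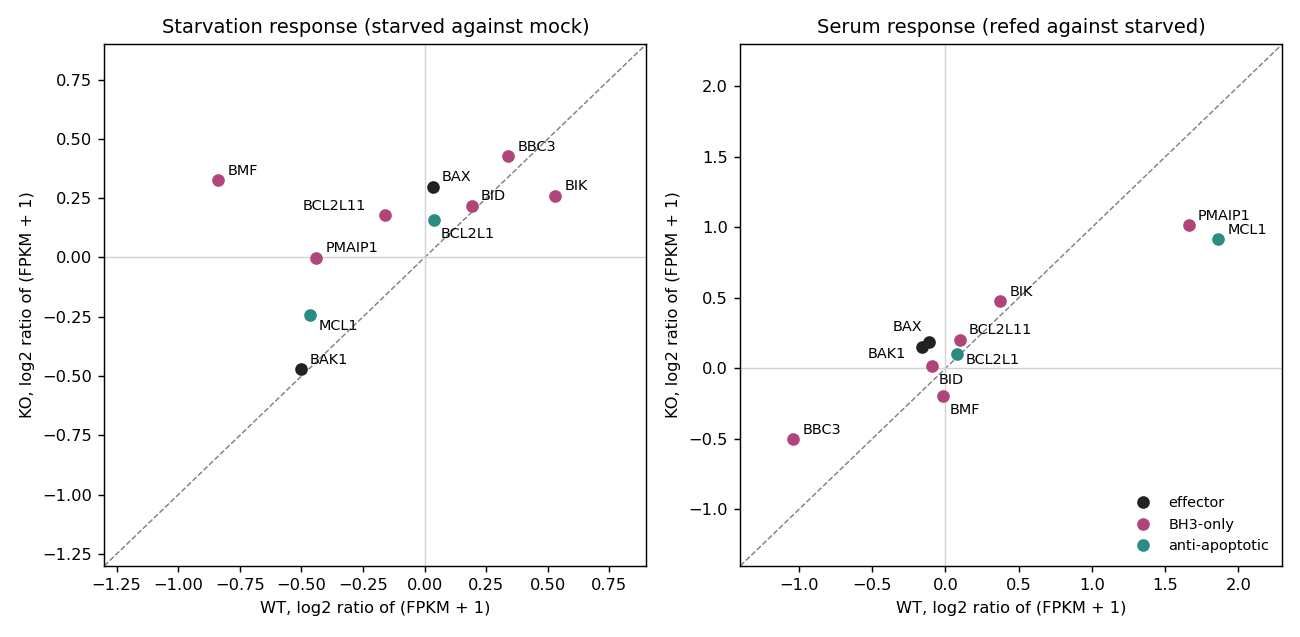
Log2 ratios of (FPKM + 1) in KO (vertical axis) against WT (horizontal axis) for the starvation response (left) and the serum response (right), 1 point per gene coloured by role; the dashed line marks equal responses. BMF lies farthest from the line on the left, and MCL1 and PMAIP1 lie below it on the right at 0.92 and 1.01 in KO against 1.86 and 1.66 in WT.

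The third comparison followed the return of serum and shares the starved values with the second. MCL1 and PMAIP1 were higher in refed than starved cells of both genotypes, and BBC3 was lower. MCL1 went from 29.7 to 110.6 FPKM in WT (3.73-fold) and from 26.9 to 51.7 FPKM in KO (1.92-fold). PMAIP1 went from 11.8 to 39.6 FPKM in WT (3.34-fold) and from 11.1 to 23.4 FPKM in KO (2.11-fold). BBC3 went from 41.3 to 19.6 FPKM in WT and from 29.5 to 20.5 FPKM in KO, ratios of 0.474 and 0.696. The direction was shared by the genotypes for all 3 genes.

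In limma none of the 10 genes passed the threshold in this comparison, where 0.773% of all features rose and 0.052% fell; 4 of the 10 had an unadjusted p under 0.05, as did 1292 of all features. The averaged differences were 1.34 for PMAIP1 (SE 0.17, adjusted p = 0.068), 1.39 for MCL1 (SE 0.24, adjusted p = 0.134), -0.77 for BBC3 (SE 0.17, adjusted p = 0.227) and 0.43 for BIK (SE 0.10, adjusted p = 0.226). PMAIP1 passed with a pseudocount of 0.1 FPKM, with a minimum of 5 FPKM, and without short RNA features. The median was 0.06 for the family and -0.01 for all features. Taken within a genotype without a test, MCL1 and PMAIP1 were at least 2-fold higher (1.69% of all features) and BBC3 at least 2-fold lower (0.684%) in WT. In KO only PMAIP1 passed 2-fold (1.98% higher, 0.446% lower), and it no longer did after rescaling.

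Responses of the genotypes were subtracted as KO minus WT on the log2 scale, which has no test with 1 value per group. The serum response differed by -0.95 for MCL1, -0.65 for PMAIP1 and 0.54 for BBC3, all outside the range from -0.23 to 0.35 that holds all features but 5% at each end. For these genes the response was smaller in size in KO. No family gene differed 2-fold, as 2.09% of all features did. The starvation response differed by 1.16 for BMF, above the 5 to 95% range of -0.27 to 0.59. For PMAIP1 it differed by 0.44, inside that range. BMF alone passed 2-fold (3.53% of all features). Both differences include the WT mock value, in which the endothelial markers stood apart, and the part of those markers was not tested.

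Genes with the most similar profiles were found by the root mean square distance of centred log2(FPKM + 1) values over the 6 groups, among 8860 genes that reached 5 FPKM in any group. For MCL1 the nearest was PMAIP1, at 0.125, followed by PTGER4, a prostaglandin receptor, at 0.129 and DCUN1D3 at 0.161. PMAIP1 was nearest to MCL1, then to PTGER4 at 0.178 and to BTG2, an early-induced antiproliferative gene, at 0.183. BTG2 measured 12.7, 8.42 and 39.7 FPKM in WT mock, starved and refed cells and 8.57, 7.95 and 22.9 FPKM in KO. Close to BIK were SLPI, a secreted protease inhibitor, at 0.104, and MSMO1, an enzyme of sterol synthesis, at 0.129. MSMO1 measured 13.5, 24.7 and 30.2 FPKM in WT mock, starved and refed cells and 33.9, 50.9 and 61.0 FPKM in KO, the same order of groups as BIK. The distances describe 6 values per gene and carry no test.

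The rest of the pathway was read from 5 lists of genes that exclude the 10. Counts are on the deposited scale unless said otherwise, where 28.7% of all features rose and 4.58% fell in KO, 5.83% rose and 19.4% fell with starvation, and 0.773% rose and 0.052% fell with serum. Of 14 other BCL2 family genes, 9 reached 1 FPKM; BCL2 itself, BCL2A1, BCL2L10, BCL2L14 and BCL2L15 did not. In KO against WT 4 of the 9 rose and none fell, with a median of 0.23 beside 0.16 for all features. BNIP3 and BNIP3L, receptors for the removal of mitochondria, rose by 0.57 (SE 0.14, adjusted p = 0.0401) and 0.28 (SE 0.07, adjusted p = 0.044), HRK, a BH3-only gene, by 0.41 (SE 0.10, adjusted p = 0.0375) and BCL2L13 by 0.33 (SE 0.06, adjusted p = 0.0192), all by limma. None of the 4 passed after either rescaling. With starvation 3 of the 9 fell and none rose: BNIP3 by 1.12, BNIP3L by 1.001 and BCL2L13 by 0.35. After either rescaling 2 of the 9 fell, BNIP3 and BNIP3L, and the BCL2L13 call was lost; no gene of this list passed between starved and refed cells.

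Downstream of the mitochondria, all 15 caspase and release genes reached 1 FPKM, and 4 rose and 2 fell in KO (median 0.05). With median-ratio factors 2 rose and 4 fell (median -0.09), and with upper-quartile factors 1 rose and 5 fell (median -0.12). CASP9, the caspase that cytochrome c activates through APAF1, rose by 0.50 (SE 0.07, adjusted p = 0.0136), and HTRA2, a mitochondrial protease, by 0.42 (SE 0.08, adjusted p = 0.0269), while CASP10 fell by 0.67 (SE 0.13, adjusted p = 0.0239). HTRA2 did not pass with upper-quartile factors (adjusted p = 0.0509). CASP9 measured 4.30, 3.57 and 8.28 FPKM in WT mock, starved and refed cells and 6.38, 4.93 and 13.4 FPKM in KO, and it was the 1 gene of this list to rise between starved and refed cells (1.15, SE 0.09, adjusted p = 0.0203). In starvation 1 gene of the list rose and none fell, and after either rescaling 3 rose and none fell. Of 7 inhibitor of apoptosis genes, 6 reached 1 FPKM; in KO only BIRC3 passed, and it fell by 0.42 (SE 0.06, adjusted p = 0.015). With starvation 1 of the 6 rose and 2 fell, and with serum none passed.

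The death receptor list held 12 genes, 11 of them at 1 FPKM or more, of which 2 rose and 4 fell in KO, with a median of -0.17 beside 0.16 for all features. With median-ratio factors 1 rose and 5 fell (median -0.36), and with upper-quartile factors none rose and 5 fell (median -0.39). TNFRSF6B and TNFRSF10D, decoy receptors, fell by 1.15 (SE 0.26, adjusted p = 0.0341) and 0.77 (SE 0.12, adjusted p = 0.0168), and CFLAR, the inhibitor of caspase-8, by 0.54 (SE 0.08, adjusted p = 0.0166). The receptor FAS rose by 0.45 (SE 0.07, adjusted p = 0.0145), a call lost with upper-quartile factors (adjusted p = 0.0521). With starvation 4 of the 11 fell and none rose (3 fell after either rescaling), and with serum none passed.

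**Figure D4:**
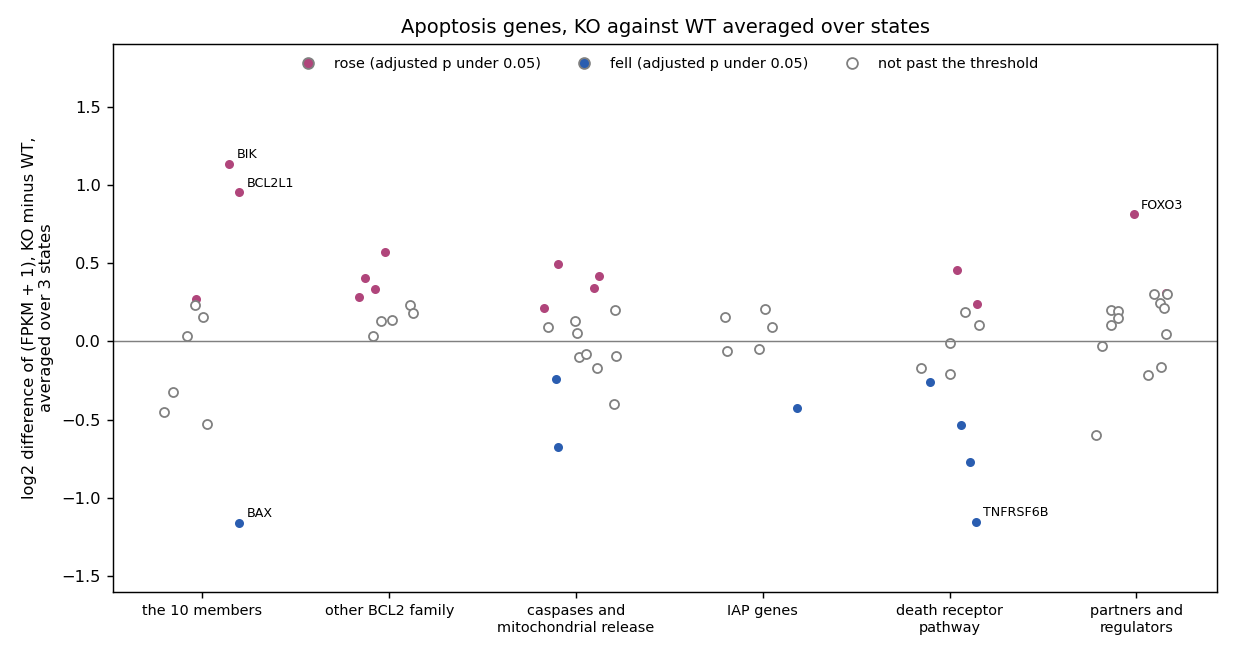
KO minus WT log2 differences of (FPKM + 1) averaged over the 3 states (vertical axis) for the 10 family genes and 5 lists of related genes, 1 point per gene at 1 FPKM or more; filled points passed the test, upward in magenta and downward in blue. Apart from BAX, BIK and BCL2L1, the points farthest from 0 are FOXO3 above and TNFRSF6B below.

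Among 15 partners and regulators of BCL2 proteins, 2 rose and none fell in KO (median 0.19) on the deposited scale. With median-ratio factors 1 rose and 1 fell (median 0.005), and with upper-quartile factors 1 rose and 2 fell (median -0.02). FOXO3, a transcription factor that can induce BCL2L11 and BBC3, rose by 0.81 (SE 0.08, adjusted p = 0.00739), and E2F1 rose by 0.31 (SE 0.06, adjusted p = 0.0202) but not after rescaling. FOXO3 measured 3.87, 2.38 and 2.19 FPKM in WT mock, starved and refed cells and 8.68, 4.41 and 4.42 FPKM in KO. With starvation 2 of the 15 rose and 2 fell, and with serum none passed.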

How the data were processed

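Polyadenylated RNA of 12 HCT116 samples, 2 per group, was sequenced, per the labels. The submitters' processing notes name FastQC, cutadapt, TopHat2 and build hg19; versions and the program that computed FPKM are not given in the sources used here. The deposited values are FPKM computed by the authors, 1 column for each of 6 groups. Each column is attached to the first replicate of its group, and whether it pools both samples is not stated. Depth is unknown, so no counting interval can be given. Steps between low values pointed to a common unit in 61 of 618 short single-transcript genes in WT starved and 57 of 671 in WT refed and in at most 9 genes elsewhere, and no reads were recovered.

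Values were used as deposited. Features that reached 1 FPKM in any group (13456) were kept, and log2(FPKM + 1) was fitted with limma 3.58.1 (R 4.3.3). State and genotype were additive terms, with a variance trend and Benjamini-Hochberg adjustment over all features (threshold 0.05). The fit was tested on simulated data without a state effect. These held 13043 genes, without short RNA features, and noise drawn at the spread that the fit itself gave. All 100 genes shifted by 1 on the log2 scale and all 100 shifted by 2 were called. The shifted genes were drawn from those of higher mean level only, so this recovery does not cover low genes such as BMF. Of the 219 calls, 8.68% were genes without a shift, more than the nominal 5%. The 7 comparisons of 1 value with 1 value have no test and use a 2-fold threshold. Motifs and tables used Python 3.11.15 with pandas 2.3.3 and numpy 2.4.6.

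The 10 genes, the lists and the comparisons were chosen with earlier results of these data known. Named genes were the 10, KDM3A, up to 4 genes of each list with the largest KO difference past the threshold, and, for the 3 family genes with the widest range, the 3 genes of most similar profile. Some items are not reported here. Alternatives were median-ratio and upper-quartile rescaling, pseudocounts of 0.1 and 5, no minimum or 5 FPKM, no variance trend, no short RNA features (413 of 13456), a 1.5-fold threshold and leaving out each value.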

Additional observations from a re-analysis of the deposited data

Results flagged for a closer look

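The response of BMF to starvation differed in direction between the genotypes: from mock to starved cells BMF went from 2.08 to 0.722 FPKM in WT and from 1.20 to 1.75 FPKM in KO, log2 ratios of -0.84 and 0.33, a difference of 1.16. With 1 value per group the difference was not tested. All 4 values are low, and the highest is that of WT mock, where the 16 endothelial markers summed to 299.5 FPKM against 49.0 to 90.2 FPKM elsewhere; their part in the BMF value was not tested.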

How the results depend on the processing

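No paired analysis was possible because the tables hold 1 column per group and none carries a replicate number. Depth is unknown, and low genes such as BMF are the least certain. Each limma call rests on 2 residual degrees of freedom, and no value allows for replicate error.

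Leaving out 1 value at a time, the count of features past the threshold ranged from 5 to 5719 for KO against WT (4483 with all values), from 0 to 4210 for starved against mock (3390) and from 0 to 21 for refed against starved (111). For KO against WT it was 5 without WT starved, 6 without KO starved, 25 without WT refed and 32 without KO refed; it was 23 for starved against mock without WT mock and, for refed against starved, 17 and 18 without WT or KO mock and 10 without KO starved. The family count ranged from 0 to 5, from 0 to 2 and from 0 to 0. Adjusted p for KO against WT ranged from 0.023 to 0.103 for BAX, 0.018 to 0.0658 for BIK, 0.0173 to 0.0802 for BCL2L1 and 0.0397 to 0.214 for BID. Across the other settings BAX, BIK and BCL2L1 held their calls.

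With no minimum level, starved against mock gave 7 features and none of the family, and refed against starved gave 32 features. Without the variance trend starved against mock gave 0 family genes, and refed against starved 73 features. Refed against starved gave 184 features with a minimum of 5 FPKM and 191 without short RNA features; in both, and with a pseudocount of 0.1, 1 family gene (PMAIP1) passed. Either rescaling gave 4 family genes for starved against mock.

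Signs turned as follows. For KO against WT, BAK1 was -0.018 and -0.044 and BCL2L11 was -0.128 and -0.153 under median-ratio and upper-quartile rescaling, and BCL2L11 ranged from -0.055 to 0.167 with 1 value left out (-0.001 without either starved value). For starved against mock with 1 value left out, BAX ranged from -0.043 to 0.373, BCL2L11 from -0.186 to 0.204 (-0.049 without KO starved), BMF from -0.795 to 0.282 (0.078 without WT starved) and PMAIP1 from -0.492 to 0.05. For refed against starved, BAX was -0.004 with upper-quartile factors and ranged from -0.18 to 0.252, BAK1 from -0.171 to 0.158 (0.064 without WT starved), BID from -0.1 to 0.024 and BMF from -0.441 to 0.228 (0.097 without WT refed). The cause was not tested.

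Counts of features at least 2-fold apart in single pairs of groups moved with the setting. For KO against WT in mock cells the count of 738 became 288 with a pseudocount of 5, 458 with a minimum of 5 FPKM and 1577 at 1.5-fold. In starved cells 544 became 906 with a pseudocount of 0.1, 216 with 5 and 1555 at 1.5-fold, and in refed cells 662 became 1072, 280 and 1933. For starved against mock in WT, 665 became 1185 and 233 with pseudocounts of 0.1 and 5, 443 with a minimum of 5 FPKM and 2293 at 1.5-fold; in KO 287 became 556, 105 and 1271 (pseudocounts of 0.1 and 5, then 1.5-fold). For refed against starved, 320 in WT became 165 with a pseudocount of 5 and 580 at 1.5-fold, and 326 in KO became 169 and 578.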
